A study of Mus musculus with 12 samples.

Results

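The aminoacyl tRNA synthetases are the enzymes that join each amino acid to its tRNA before the ribosome can use it. The set described here holds 36 genes of the 34797 gene names on the array, chosen by name. It comprises 20 cytosolic synthetases, whose names lack a final 2 and which include Farsa and Farsb, the α and β subunits of the phenylalanine enzyme, and 16 mitochondrial synthetases, whose names end in 2. The cells were RAW264.7, an established mouse macrophage line, kept for 24 h in medium with 0.5% fatty acid-free BSA in all groups. Both agents were given together in the first group (0.2 mM palmitic acid and 200 nM recombinant FABP4), palmitic acid alone in the next, FABP4 alone in another, and neither in the control. Palmitic acid is a saturated fatty acid, and FABP4, also called aP2, is a lipid carrier made by fat cells and macrophages. Each group had 3 arrays, 12 in all, and the labels do not say whether these came from separate cultures, so the p-values reflect only how far these samples varied, and that variation may be technical.

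In the cytosol the synthetases feed amino acids to the ribosomes that make most cell proteins, and several of them are held in 1 large multisynthetase complex. A separate set, encoded in the nucleus and imported, charges the tRNAs of the mitochondrial genome for the few respiratory chain subunits translated inside the organelle. When a synthetase lacks its amino acid, uncharged tRNA activates the kinase GCN2, eIF2 is phosphorylated and translation of the transcription factor ATF4 increases. ATF4 is known to drive many cytosolic synthetase genes together with genes of amino acid synthesis and transport, and it binds C/EBP-ATF elements with the core TGATGNAA.

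The arrays held 59305 non-control spots each, of which 42.8% to 46.7% were well above background and 0 were saturated. A level here is the log2 processed intensity minus the 75th percentile of its array, and levels of different genes come from different probes and are not set against each other. The 12 arrays were split over 2 slides, with the controls and FABP4 replicate 1 on slide 1 and every other array on slide 2. FABP4 replicates 2 and 3 stood apart from replicate 1 on the first principal component, at 2.57 and 3.81, against -27.7 for replicate 1, and from all other arrays on the second. All 10 macrophage markers examined were well above background on every array, whereas the adipocyte, dendritic cell, fibroblast, lymphocyte and neutrophil lists, of 5 or 6 markers, had 1 or 2 such markers each. Of 5 osteoclast markers, 4 were well above background on every array. Their summed intensity, not scaled between arrays, was 6992 to 8020 with both agents and 7146 to 8403 with palmitic acid. It was 5659 to 5939 with FABP4 and 4953 to 5172 in the control. Slide and array brightness were not removed from these sums, and the part of these markers in the results was not tested.

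The promoters of 27 members were matched in RefSeq (GRCm38.p6), each covering 250 bases before and 50 after the gene's start. The core TGATGNAA, searched on both strands, was present in 5 of the 13 cytosolic promoters (Aars, Gars, Iars, Tars and Yars) and in 0 of the 14 mitochondrial ones, and in 3.97% of all 32851 promoters. The matches in Gars, Iars, Tars and Yars follow with 15 bases on either side, on the strand of the gene, because these genes carry the letters of an ATF4 element; capitals mark the match, which is reverse-complemented where it lies on the opposite strand.
Gars, chr6:55037956-55037993, + strand: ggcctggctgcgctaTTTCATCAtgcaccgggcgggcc
Iars, chr13:49682122-49682159, + strand: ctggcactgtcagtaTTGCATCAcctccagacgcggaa
Tars, chr15:11399651-11399688, - strand: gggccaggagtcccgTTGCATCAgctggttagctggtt
Yars, chr4:129189891-129189928, + strand: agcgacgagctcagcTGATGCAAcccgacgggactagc
The E-box CACGTG, which reads the same on both strands, was present in 4 cytosolic promoters (Aars, Farsb, Iars and Tars) and 1 mitochondrial promoter (Ears2), against 7.15% of all promoters. A match describes the letters in the window and is not evidence of binding.

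Of the 36 members, 35 were tested, and the probes that stood for them were well above background on all 12 arrays. The exception, Nars2, the mitochondrial asparagine enzyme, was well above background on 1 array, a control, and has no test. The standard error of a log2 change had a median of 0.06 for the cytosolic genes and 0.11 for the mitochondrial genes. Within groups the SD of a cytosolic gene had a median of 0.06, and the widest was 0.37 for Yars with FABP4.

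**Figure D1:**
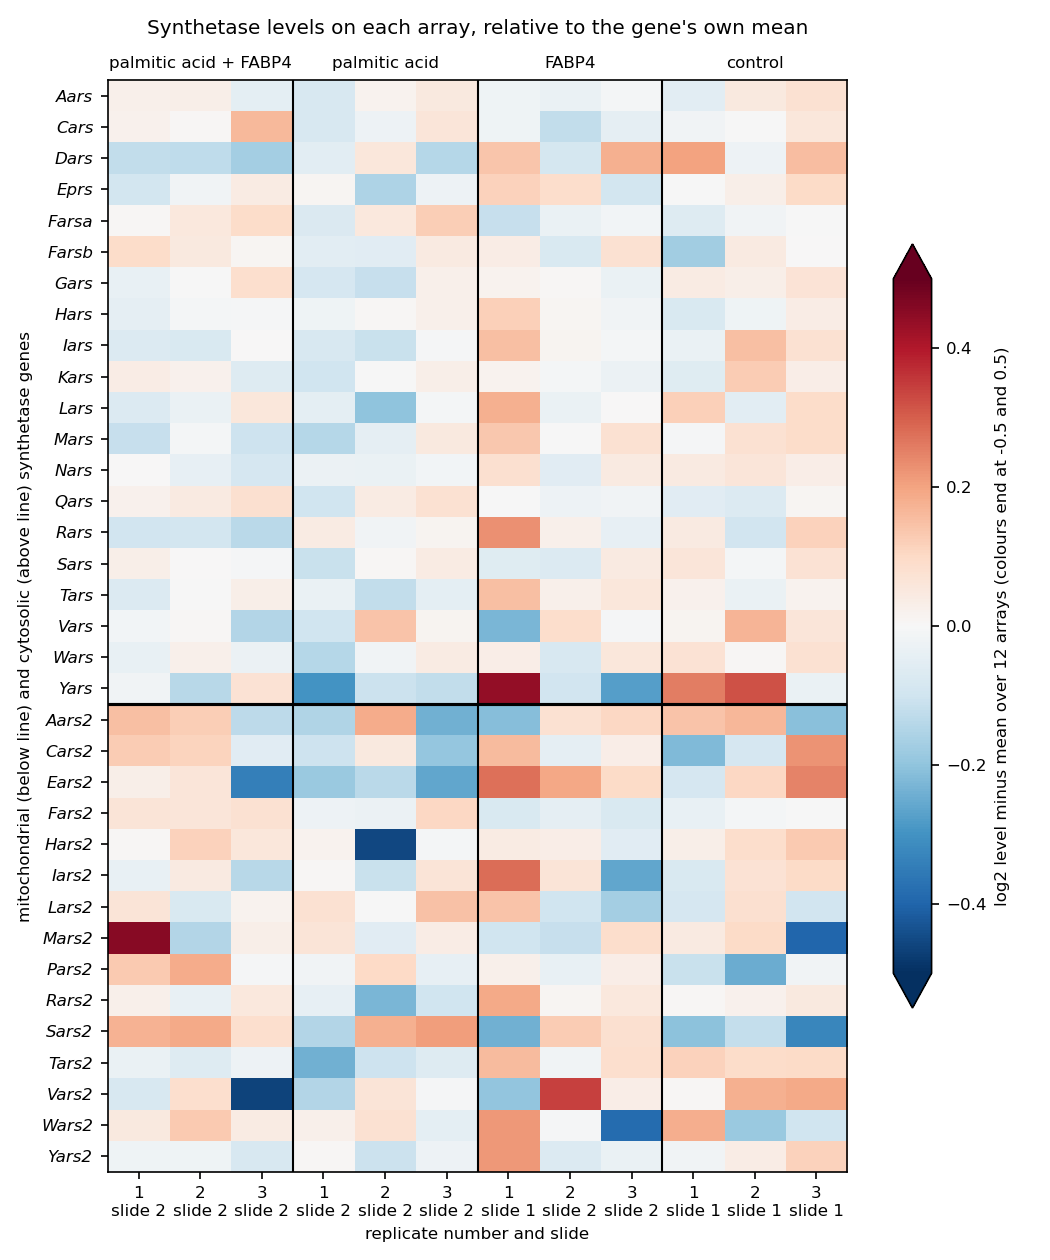
Each row is 1 of the 35 synthetase genes tested and each column 1 of the 12 arrays, with the group above and the slide below; colour gives the log2 level minus the gene's mean over the 12 arrays. Most cells are pale, and in Yars the first FABP4 array, on slide 1, is dark while the other 2 FABP4 arrays, on slide 2, lie below the mean.

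With palmitic acid alone, 1 of the 35 members tested passed an adjusted p of 0.05 against the control (limma, Benjamini-Hochberg over 17596 genes), at a background of 8.61% of all genes. It was Tars2, the mitochondrial threonine enzyme, which fell by 0.24 on the log2 scale. None of the 20 cytosolic genes passed, and none did at an unadjusted p of 0.05 either, although 26.5% of all genes did. Their changes ran from -0.36 (Yars) to 0.06 (Farsa) with a median of -0.07, against 0.00 for all genes tested, and 16 of 20 were negative. In this fit, without slide, the 95% interval of 19 of the 20 lay within a 1.3-fold change in either direction, Yars being the exception. That limit did not hold with slide as a fixed block. Vars then differed by -0.33 ± 0.13 and Rars by 0.23 ± 0.10, with an upper bound of 0.45 for Rars.

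Tars2 had levels of 4.22, 4.36 and 4.40 with palmitic acid, against 4.58, 4.55 and 4.56 in the control. All 3 palmitic acid arrays lay below all 3 controls, as in 7 of the 35 members (all 7 of them lower), against 33.9% of all genes in either direction and 16.4% lower. The change was -0.24 ± 0.06 (SE, n = 3 each; adjusted p = 0.0358 by limma), and its 95% interval was -0.37 to -0.11. With both agents the levels were 4.43, 4.40 and 4.44, against 4.62, 4.44 and 4.55 with FABP4, a difference of -0.12 ± 0.06 that did not pass (adjusted p = 0.287 by limma). The 6 arrays with palmitic acid thus lay below the 6 without, and the 8 arrays of slide 2 also lay below the 4 of slide 1, as in 3.22% and 3.51% of all genes; no other member did either. With slide as a fixed block the first difference was -0.11 ± 0.10 and did not pass (adjusted p = 0.638 by limma), nor did it with slide as a random block (adjusted p = 0.346). The call was also lost when any 1 control array, palmitic acid replicate 1 or 2, or any 1 array with both agents was left out, with adjusted p from 0.0199 to 0.107 over all leave-one-out fits.

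A second Tars2 probe, assigned to another transcript, lay further 5′ in the gene. The sequences are shown because the 2 probes gave estimates of different size, a difference that was not tested. The first 30 bases of the probe behind the call (mm9, chr3:95543899-95543958, - strand) and the whole second probe (mm9, chr3:95549701-95549760, - strand) read as follows.
Probe behind the call: cccacagaaaggaatgctgtactgactgga
Second probe: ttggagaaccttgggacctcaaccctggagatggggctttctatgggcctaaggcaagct
The second probe had levels of 1.80, 1.83 and 1.85 with palmitic acid, against 1.74, 1.92 and 2.00 in the control. The groups overlapped, and the difference of -0.06 ± 0.08 did not pass at an unadjusted p of 0.448.

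Among the other mitochondrial genes none passed the adjusted test, and 3 more had an unadjusted p below 0.05. With Tars2 these were 4 of 15, close to the share of 26.5% among all genes. Ears2, which charges mitochondrial glutamate tRNA, had levels of -0.38, -0.33 and -0.46 with palmitic acid, against -0.28, -0.09 and 0.05 in the control (-0.28 ± 0.11, adjusted p = 0.147 by limma). With both agents Ears2 had levels of -0.16, -0.13 and -0.54, against 0.08, -0.00 and -0.10 with FABP4 (-0.27 ± 0.11, adjusted p = 0.216 by limma). The groups did not overlap in either comparison, and with slide as a fixed block the differences were -0.15 and -0.23, neither of which passed. Sars2, the mitochondrial serine enzyme, had levels of 0.63, 0.96 and 0.99 with palmitic acid, against 0.57, 0.66 and 0.45 in the control (0.30 ± 0.12, adjusted p = 0.137 by limma). FABP4 replicates 2 and 3 of Sars2 were at 0.91 and 0.86 and replicate 1 was at 0.54, so that 7 of the 8 slide 2 arrays lay above the 4 of slide 1, and the blocked difference was -0.05. Rars2, the mitochondrial arginine enzyme, had levels of 3.05, 2.86 and 2.99 with palmitic acid, against 3.1, 3.11 and 3.14 in the control (-0.15 ± 0.06, adjusted p = 0.167 by limma; 0.01 with slide as a block). The mitochondrial median was -0.06, with 6 positive and 9 negative differences. In the fit without a block the 95% intervals of all 15 lay within a 1.5-fold change. With slide as a fixed block that limit did not hold, as Aars2 then differed by -0.41 ± 0.24.

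**Figure D2:**
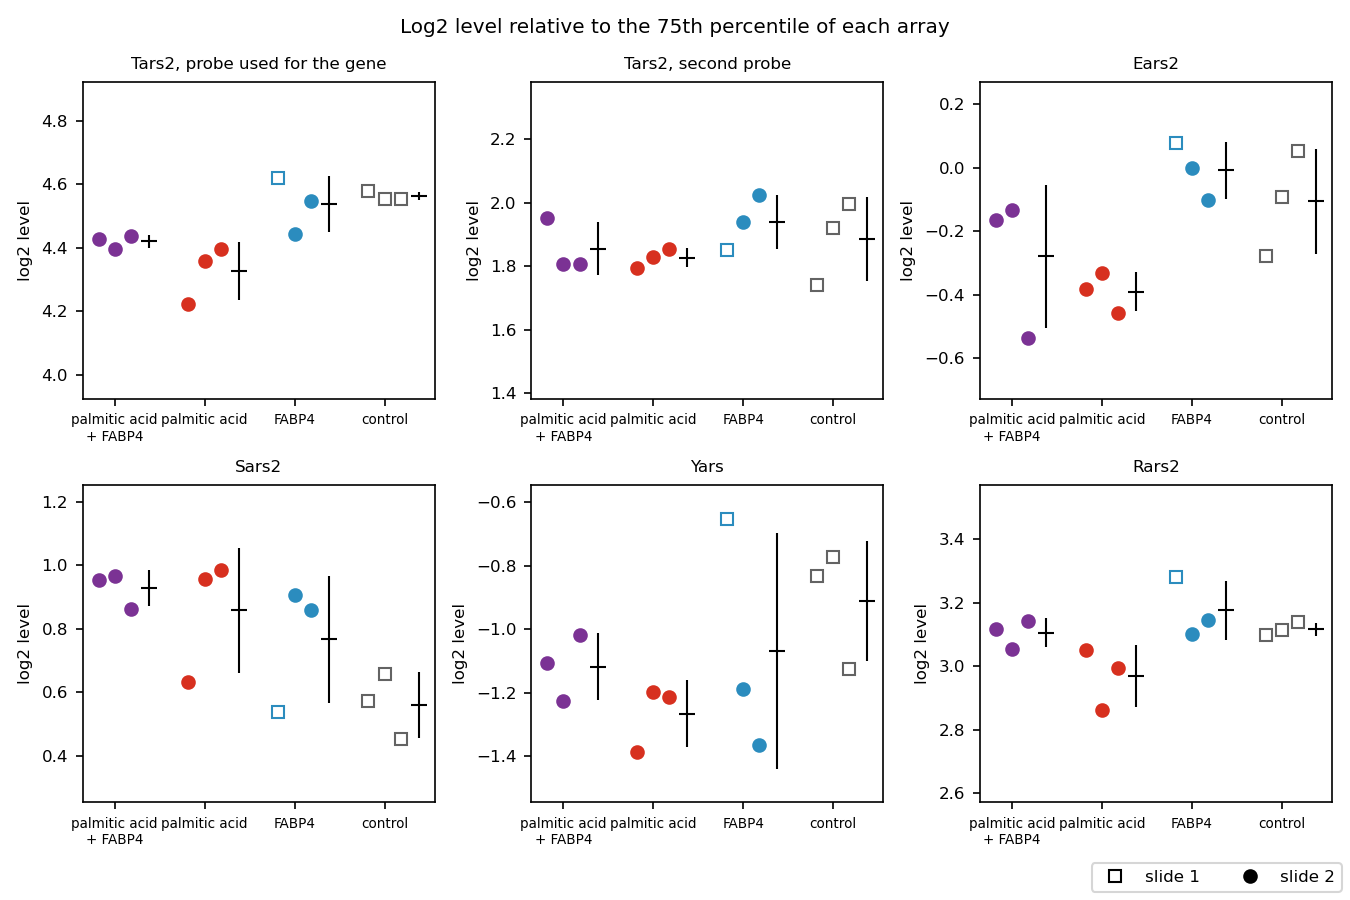
Log2 level on each array for both Tars2 probes, Ears2, Sars2, Yars and Rars2, with open squares for slide 1 and filled circles for slide 2; the bar beside each group is the mean ± SD of 3 arrays. In Sars2 the open FABP4 square lies with the controls, and in Yars it lies above them. In both genes the filled FABP4 circles lie with the palmitic acid arrays.

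Yars, the cytosolic tyrosine enzyme, had the largest estimated difference of the family. Of the probes used for cytosolic genes that of Yars was the dimmest, with group mean intensities from 121 to 139. The standard error of Yars was also the largest. Its levels were -1.39, -1.20 and -1.21 with palmitic acid, against -0.83, -0.77 and -1.12 in the control (-0.36 ± 0.16, adjusted p = 0.2 by limma). The FABP4 arrays split by slide: replicate 1, on slide 1, was at -0.65, and replicates 2 and 3, on slide 2, were at -1.19 and -1.36. The mean of the palmitic acid arrays exceeded that of the last 2 by 0.01, and with slide as a fixed block the palmitic acid difference was 0.27. Leaving out FABP4 replicate 1 gave Yars an adjusted p of 0.0482 (limma) and made 2 members called. No control array lay on slide 2, so slide and palmitic acid alone cannot be told apart in these differences beyond what FABP4 replicate 1 provides.

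With slide as a fixed block the cytosolic median for palmitic acid alone was 0.02, beside a median of 0.04 for all genes. In that fit 9 of 20 were negative and 13 of 20 lay below the median of all genes. Without scaling between arrays the median of all genes moved by over 0.1, to 0.17; the cytosolic median was then 0.11, with 1 of 20 negative and 16 of 20 below the median of all genes. By array, 2, 7 and 13 of 20 cytosolic genes lay above their own mean on palmitic acid replicates 1 to 3. On control replicates 1 to 3 the counts were 10, 11 and 18, so the groups overlapped. The shares of all genes were 37.7%, 49.1% and 61.9% with palmitic acid and 42.6%, 46.9% and 53.3% in the control.

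With both agents against FABP4 alone, 0 of 35 members passed the adjusted test, at a background of 3.81%; 5 had an unadjusted p below 0.05, against 20.9% of all genes. The cytosolic median was -0.03 and the mitochondrial median 0.05, beside 0.05 for all genes. Of the 5, 3 encode parts of the multisynthetase complex. Dars, the aspartate enzyme, had levels of -0.27, -0.28 and -0.33 with both agents, against -0.02, -0.24 and 0.02 with FABP4 (-0.22 ± 0.08, adjusted p = 0.189 by limma). Rars, the arginine enzyme, had levels of 2.31, 2.31 and 2.27 with both agents, against 2.63, 2.43 and 2.36 with FABP4 (-0.18 ± 0.07, adjusted p = 0.213 by limma). Mars, the methionine enzyme, had levels of 2.96, 3.06 and 2.97 with both agents, against 3.20, 3.07 and 3.15 with FABP4 (-0.14 ± 0.06, adjusted p = 0.22 by limma). FABP4 replicate 1 lay on slide 1, and FABP4 replicates 2 and 3, on slide 2, averaged lower in all 3 genes. Their mean minus replicate 1 was -0.09 for Dars, -0.24 for Rars and -0.10 for Mars. The groups did not overlap in these 3 genes, nor in 6 others among the 35, at a background of 26.3% of all genes. Fars2, the mitochondrial phenylalanine enzyme, was on the other side, with levels of 2.86, 2.86 and 2.87 with both agents, against 2.72, 2.75 and 2.72 with FABP4 (0.13 ± 0.05, adjusted p = 0.146 by limma). On slide 2 only, where 2 FABP4 arrays remained, 0 members passed.

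The 8 genes of the multisynthetase complex (Dars, Eprs, Iars, Kars, Lars, Mars, Qars and Rars), grouped after the values were seen, had a median change of -0.10 with palmitic acid alone, with 7 of 8 negative, and of -0.08 with both agents against FABP4, with 6 of 8 negative. With slide as a fixed block 3 of 8 were negative in the first comparison (median 0.02) and 5 of 8 in the second (median -0.04). Without scaling 0 of 8 were negative in the first (median 0.07, beside 0.17 for all genes) and 8 of 8 in the second (median -0.18, beside -0.05). The sign in the first comparison thus turned with both choices. The median of the 8 stayed below that of all genes, which was 0.00 in the main fit and 0.04 with the block. In the fit without a block the 12 other cytosolic genes had medians of -0.06 and 0.01. Qars, the glutamine enzyme, was the 1 positive member of the complex in the first comparison, at 0.04, and in the second it was at 0.06 beside Kars, the lysine enzyme that serves both compartments, at 0.01. None of these differences passed the test.

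**Figure D3:**
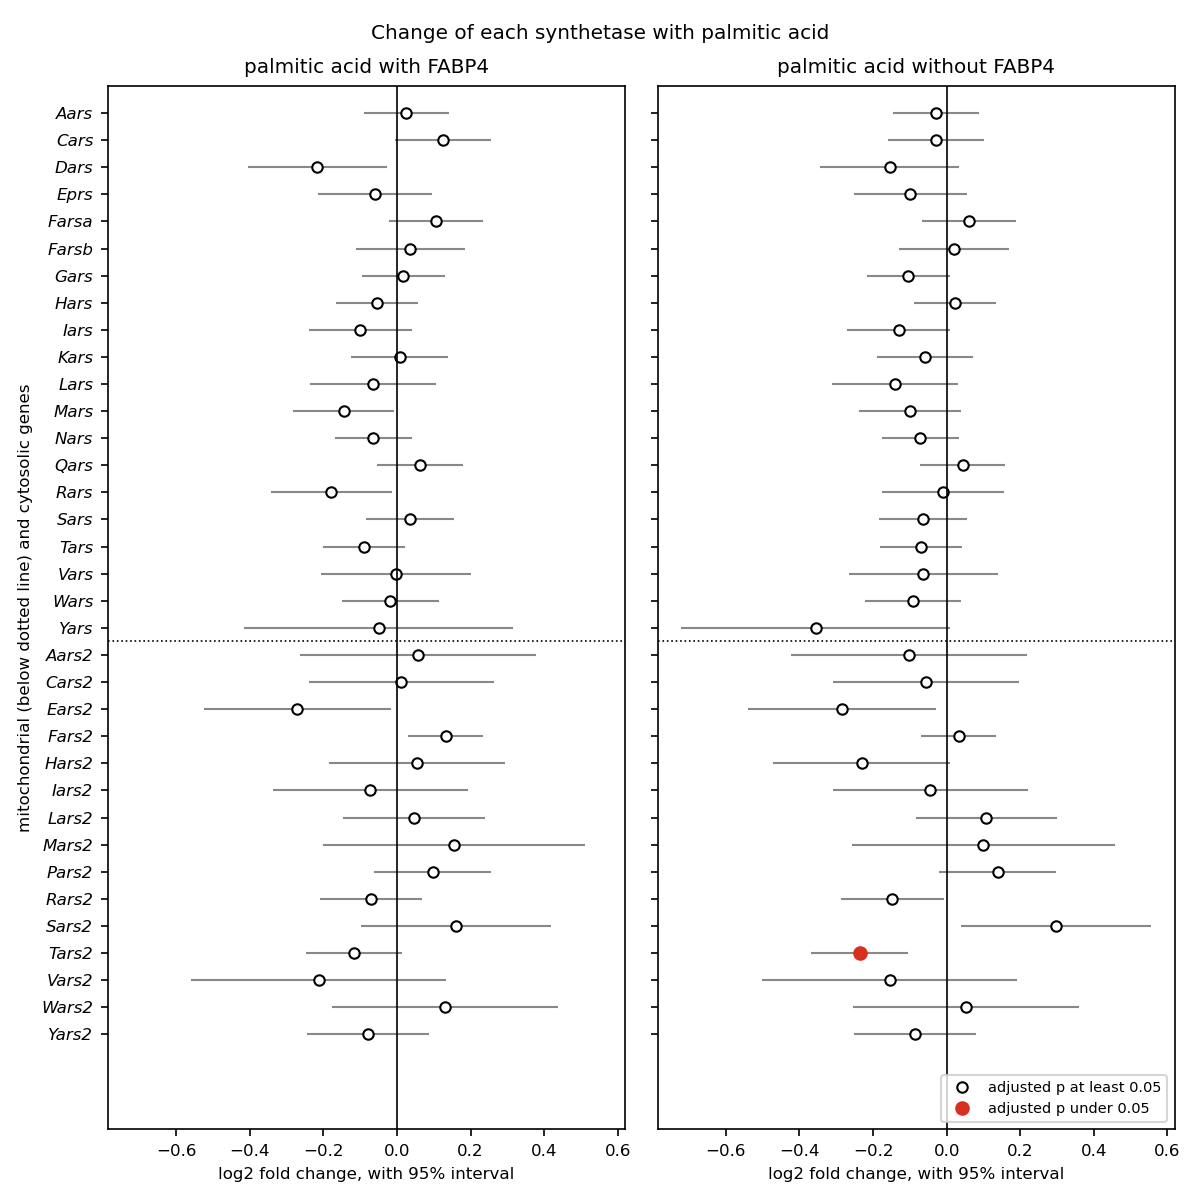
Log2 fold change of each of the 35 synthetase genes with its 95% interval, for palmitic acid with FABP4 (both agents against FABP4) and without (palmitic acid against control); the filled point passed the adjusted test. Tars2 without FABP4 is the 1 filled point, and Yars has the widest cytosolic interval in both panels.

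For 12 amino acids both the mitochondrial and the cytosolic enzyme have their own gene in the set and were tested. With palmitic acid alone, 6 of the 12 mitochondrial changes lay above their cytosolic partner, and the differences, mitochondrial minus cytosolic, ran from -0.25 (histidine) to 0.36 (serine). With both agents against FABP4, 8 of 12 lay above, from -0.21 (valine) to 0.30 (methionine). The difference within a pair was not tested.

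Addition of FABP4 gave no called member in either setting. Against the control, FABP4 alone gave 0 of 35, at a background of 0.017%, and 0 with an unadjusted p below 0.05, against 7.23% of all genes. The largest difference was that of Sars2, at 0.21 ± 0.12 (adjusted p = 0.765 by limma), whose blocked value was -0.02, and 4 of the 35 members did not overlap, against 10.4% of all genes. On palmitic acid, both agents against palmitic acid alone gave 0 of 35, at a background of 0%, and again 0 at the unadjusted threshold, against 5.88% of all genes. Rars2 had levels of 3.12, 3.06 and 3.14 with both agents, against 3.05, 2.86 and 2.99 with palmitic acid, which did not overlap (0.14 ± 0.06, adjusted p = 0.806 by limma). Both groups of that comparison lay on slide 2, and 2 of the 35 members did not overlap, against 14.5% of all genes. In the fit without a block, the 95% intervals of 19 of 20 cytosolic genes lay within a 1.3-fold change in each FABP4 comparison. Yars was the exception. Of the 15 mitochondrial genes, 12 lay within it with FABP4 alone and 10 with FABP4 on palmitic acid. With slide as a fixed block, FABP4 alone gave a mitochondrial median of 0.15, with 9 of 15 positive, beside 0.02 for all genes. For FABP4 alone that fit rests on FABP4 replicate 1, whose level minus the control mean was -0.31 for Vars and 0.26 for Yars. Whether the limit held with the block was not examined for FABP4 alone. The interaction, which asks whether the palmitic acid difference depends on FABP4, called 0 of 35, at a background of 0%, and 0 at the unadjusted threshold, against 6.92% of all genes; the largest estimate, 0.31 ± 0.23, was that of Yars.

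None of the 5 cytosolic genes with the ATF4 element core in their promoters was called in any comparison. The shares of all genes called were 8.61% with palmitic acid alone, 3.81% with both agents against FABP4 and at most 0.017% in the others. At such shares the absence of calls among 5 genes does not set them apart. Aars, the alanine enzyme, had levels of 6.18, 6.27 and 6.31 with palmitic acid, against 6.20, 6.31 and 6.34 in the control. Gars, the glycine enzyme of both compartments, had levels of 7.84, 7.81 and 7.95 with palmitic acid, against 7.97, 7.96 and 8.00 in the control (-0.10 ± 0.05, adjusted p = 0.227 by limma). These groups overlapped in Aars and did not in Gars, whose palmitic acid arrays were the lower ones, as in 16.4% of all genes. Iars, the isoleucine enzyme, and Tars, the threonine enzyme, had differences of -0.13 ± 0.06 and -0.07 ± 0.05. All 5 were negative with palmitic acid alone in the fit without a block, where the upper 95% bound was at most 0.09. Of all genes, 50.1% were positive in that fit. With slide as a fixed block 2 of 5 were negative, from -0.07 (Gars) to 0.27 (Yars), and the highest upper bound was 0.69, that of Yars. Without scaling 1 of 5 was negative, with a median of 0.07 beside 0.17 for all genes. With both agents against FABP4 the 5 ran from -0.10 to 0.03.

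Genes that ATF4 is known to drive, and others of amino acid supply, gave 4 higher and 1 lower call of 31 tested with palmitic acid alone, and 5 higher calls with both agents against FABP4, beside backgrounds of 4.88% higher, 3.73% lower and 2.86% higher. These splits moved with the scaling: over all genes, both agents against FABP4 gave 504 higher and 166 lower calls, but 390 higher and 431 lower with the percentile taken over detected probes. The list medians were -0.01 and 0.05. Slc3a2, the heavy chain of the amino acid exchangers, had levels of 7.07, 7.26 and 7.18 with palmitic acid, against 6.67, 6.70 and 6.73 in the control (0.47 ± 0.06, adjusted p = 0.00141 by limma). Atf3, a stress-induced transcription factor, rose by 0.56 ± 0.04, Gdf15, a secreted stress cytokine, by 0.77 ± 0.13 and Slc1a4, a neutral amino acid transporter, by 0.42 ± 0.06 in the same comparison. Gpt2, an alanine aminotransferase named after its values were seen, fell by 0.30. With both agents against FABP4, Slc3a2, Atf3 and Gdf15 rose again (0.48, 0.49 and 0.88), and Ddit4, an mTORC1 inhibitor, rose by 0.78 ± 0.14. The FABP4 arrays of Ddit4 were scattered, at 4.15 for replicate 1, on slide 1, and 4.43 and 4.85 for replicates 2 and 3. Its levels with both agents were 5.23, 5.27 and 5.29, and the control mean was 4.89. Ddit4 was not called with palmitic acid alone. Atf4 itself, also named after its values were seen, had levels of 9.04, 9.06 and 9.16 with both agents, against 8.92, 8.82 and 8.85 with FABP4 (0.22 ± 0.05, adjusted p = 0.048 by limma), and differed by 0.03 ± 0.05 with palmitic acid alone. The difference between these genes and the synthetases was not tested.

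Of 11 genes that sense uncharged tRNA or act on eIF2, 1 passed in both palmitic acid comparisons. The backgrounds for this and the next lists were 8.61% of all genes with palmitic acid alone and 3.81% with both agents against FABP4. It was Ppp1r15a, the GADD34 subunit that directs a phosphatase to eIF2, which rose by 0.57 ± 0.06 with palmitic acid alone and by 0.64 ± 0.06 with both agents against FABP4. Among 13 partners of the synthetases, the complex scaffolds and tRNA editing enzymes included, Aarsd1, which clears mischarged alanine tRNA, fell by 0.20 ± 0.05 with palmitic acid alone (adjusted p = 0.0353 by limma), and no other passed. Of 10 translation elongation factors, Eef2k, the kinase that inhibits elongation factor 2, fell in both comparisons, by 0.61 ± 0.11 and 0.62 ± 0.11 (0.943% of all genes were called lower in the second), and Eef1g, a subunit of the elongation factor 1 complex, fell by 0.26 ± 0.06 in the first. Eef2k was dim, with a mean level of -3.32 with palmitic acid against -2.71 in the control. Its mean was -3.44 with both agents against -2.81 with FABP4, and low signal limits both estimates. Of 32 genes of tRNA processing and transcription, Polr3e, a subunit of RNA polymerase III, fell by 0.46 ± 0.10 with palmitic acid alone. With slide as a fixed block, Atf3 was still called in the palmitic acid comparison without FABP4, whereas 9 other calls were lost. In 7 of these the blocked difference was at least 0.8 times the unblocked one, with wider errors: Slc3a2 differed by 0.50 ± 0.10 (adjusted p = 0.0646 by limma), Gdf15 by 1.06 ± 0.21 (0.061), Ppp1r15a by 0.58 ± 0.11 (0.0543) and Slc1a4 by 0.38 ± 0.12 (0.17). The others of the 7 were Eef2k at -0.77 ± 0.19 (adjusted p = 0.112 by limma), Eef1g at -0.26 ± 0.12 (0.342) and Aarsd1 at -0.18 ± 0.09 (0.387). Gpt2 (-0.03, adjusted p = 0.907 by limma) and Polr3e (-0.18, adjusted p = 0.627) had smaller blocked differences. None of these lists had a called gene in the FABP4 comparisons or the interaction.

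**Figure D4:**
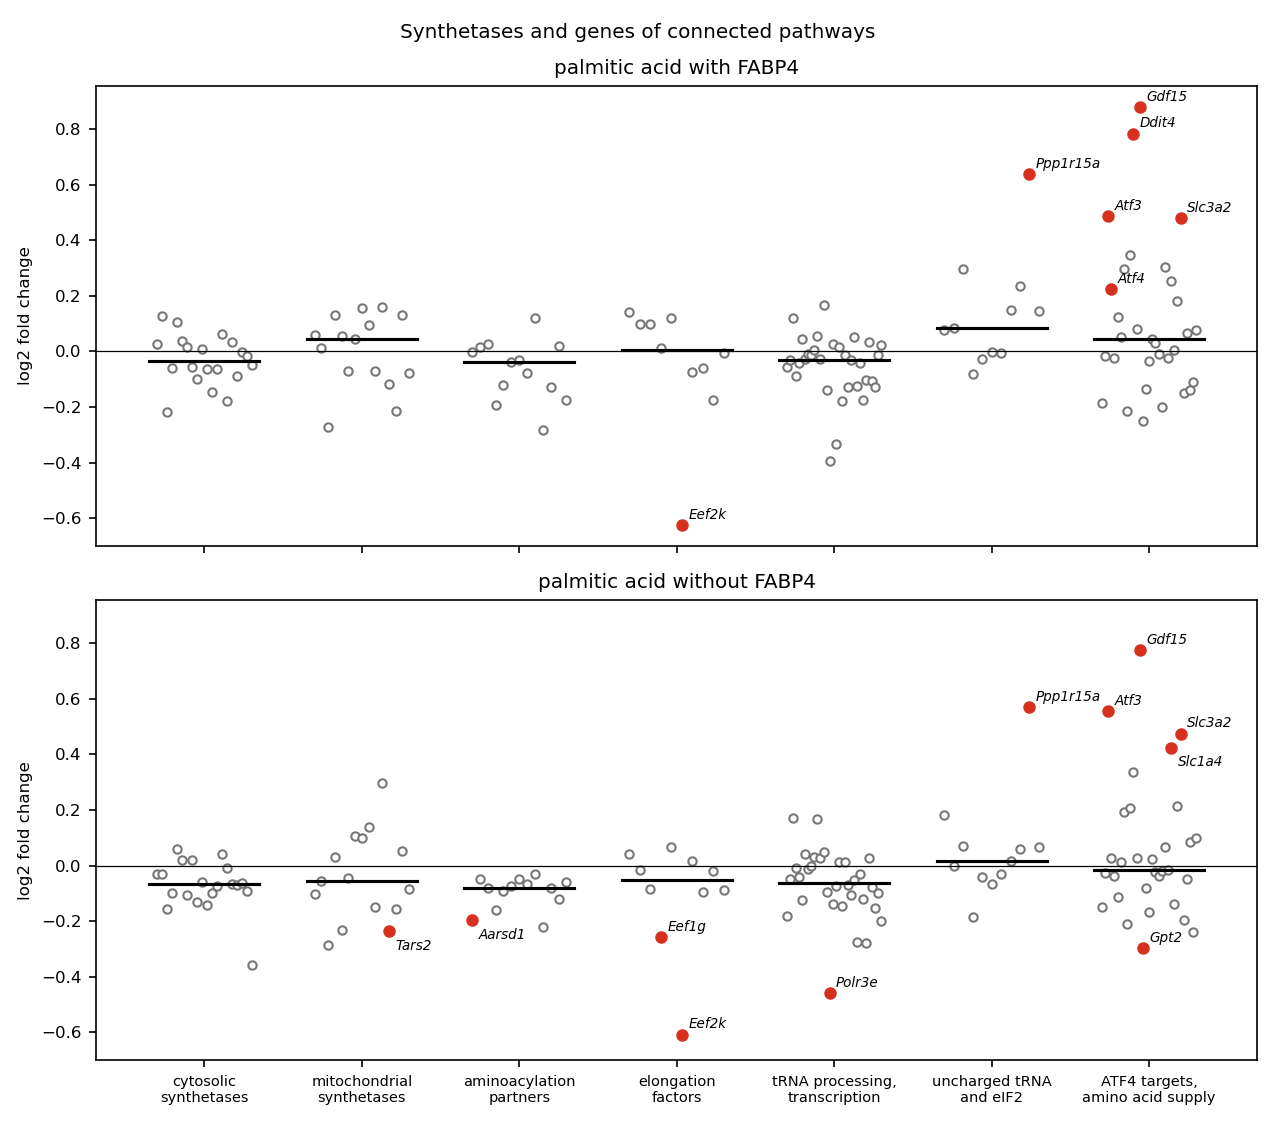
Log2 fold change of each gene tested in the 2 synthetase classes and 5 lists of connected genes, for palmitic acid with FABP4 (upper panel) and without (lower panel); filled points passed the adjusted test and are named, and bars are medians. The cytosolic synthetases lie between -0.36 and 0.13, while Gdf15 reaches 0.88.

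Where a further probe of a member passed the filter (Farsa, Wars, Cars2, Iars2, Tars2 and Wars2), none had an adjusted p below 0.05 in any comparison. A Farsa probe assigned to another transcript differed by -0.26 ± 0.14 with palmitic acid alone, against 0.06 and 0.09 for the other Farsa probes. A second Wars probe differed by 0.09 ± 0.07, against -0.09 for the probe used for this tryptophan enzyme, and a second Cars2 probe by -0.25 ± 0.13 with both agents against FABP4, against 0.01 for the probe used for this mitochondrial cysteine enzyme.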

How the data were processed

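Each 1-colour Agilent mouse array received Cy3 cRNA made from 50 ng of total RNA, per the labels. The scanner images were read by Agilent Feature Extraction 10.7.3.1 and probe positions are on mm9, per the file headers. The deposited intensity is the background-subtracted processed signal on a linear scale, with no normalization between arrays. A value table also deposited matched it within 0.005, with column medians from 12.97 to 18.4, and is neither centred nor logged. Here log2 intensities were reduced by each array's 75th percentile over non-control spots (250.1 to 315.3). Probes flagged well above background in every array of 1 group or more were kept (23911 of 55681), and each gene was represented by its brightest kept probe (17596 genes). Control spots and outlier values (10 among the genes tested) were left out; a gene with such a value was fitted on its remaining arrays.

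Group means over all 12 arrays were fitted with limma 3.58.1 in R 4.3.3 (lmFit, eBayes, two-sided, Benjamini-Hochberg), and a gene was called at an adjusted p under 0.05. The number of arrays, 3 a group, limits the precision. Members and gene lists were chosen with earlier results of these data known. All members are named; from a list, at most 4 called genes with the smallest p per comparison, the rest being named as exceptions. Slide, normalization, filter, probe choice, replicate block and leave-one-out alternatives were run. Sequences are from RefSeq (GRCm38.p6) for promoters and from the array files for probes; protein sequences were not used here. The sequence of 1 further promoter with a match is not reported here. Same-numbered arrays correlated between -0.08 and 0.17 in their deviations from group means, as did arrays of different numbers (-0.17 to 0.16).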

Additional observations from a re-analysis of the deposited data

How the results depend on the processing

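For palmitic acid alone, the count of called members was 0 with normexp background correction, no filter on dim probes, the mean of a gene's probes, slide as a fixed or random block, the replicate block and a fit of only the groups compared; the Tars2 difference stayed negative in all of them, between -0.11 and -0.24, and the cause was not tested. Leaving out 1 array gave 0 to 2 called members. Without scaling, 1 member, Sars2, was called (0.47, adjusted p = 0.0183 by limma) in place of Tars2 (-0.06). With both agents against FABP4 the count was 1 without the FABP4 arrays on slide 2 and 0 otherwise. That fit leaves FABP4 with 1 array, on slide 1, which is assumed to vary like the other groups, and its counts here and below have no replicate check of that arm. In the FABP4 comparisons and the interaction it was 0 in every setting run. Called genes over the whole table moved more. For palmitic acid alone there were 513 with no filter, 138 with the fixed and 191 with the random slide block, 3055 without scaling, 2453 without the FABP4 arrays on slide 2, and 655 to 2716 leaving out 1 array. For both agents against FABP4 there were 185 with no filter, 260 on slide 2 only, 408 with the replicate block, 94 with only the groups compared, 159 without scaling, 1674 without the FABP4 arrays on slide 2, and 247 to 601 leaving out 1 array. For FABP4 alone there was 1 with no filter, 103 with the fixed slide block, 86 without the FABP4 arrays on slide 2, 0 to 59 leaving out 1 array, and 0 with the median scaling, the percentile over detected probes, normexp, detection required on every array, averaged probes, the random slide block, the replicate block and only the groups compared. For FABP4 on palmitic acid, leaving out 1 array gave 0 to 2. For the interaction there were 37 with the fixed slide block, 3 without scaling, 32 without the FABP4 arrays on slide 2, and 0 to 5 leaving out 1 array. The split by direction also moved: palmitic acid alone had 858 higher and 657 lower calls, but 2945 and 110 without scaling, and both agents against FABP4 had 504 higher and 166 lower, but 393 and 304 with quantile normalization, 443 and 296 with the median scaling, 390 and 431 with the percentile over detected probes and 67 and 92 without scaling. Leaving out FABP4 replicate 1 gave the highest count among the leave-one-out fits for palmitic acid alone, FABP4 alone and the interaction. The fits without scaling and without the FABP4 arrays on slide 2 were chosen after seeing the data. The replicate numbers are only names here, and the replicate block lost the Tars2 call (adjusted p = 0.061). Signal over background limits Nars2, well above background on 1 array.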
